A study of Mus musculus with 20 samples.

Results

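Wide Setdb1 peaks were chosen from the Setdb1 ChIP-Seq peak lists of young and old mouse liver as the peaks on chr1 to chr19 that span more than 200 bp from start to end. Of 49271 Setdb1 peaks in young liver 1365 were wide, and of 13678 in old liver 252 were wide, so that 1617 of the 175329 peaks in the 6 lists of the series are described here. All other Setdb1 peaks of these chromosomes, 47906 in young and 13426 in old liver, were exactly 200 bp wide and serve as the comparison within each age. The mice were wild type C57BL/6 males, aged 3 months (young) or 21 months (old), without treatment, and snap-frozen whole liver was used. The study made 1 list each of Setdb1, Kap1 and H3K14ac for each age. The paper combined H3K14ac with earlier data on trimethylated lysine 9 of histone H3 (H3K9me3) to find regions with both marks. It then looked for Setdb1 and Kap1 in these regions in young and old liver. Reads of 3 livers per age were merged for Setdb1 and for H3K14ac, and of 2 livers per age for Kap1, before peaks were called. Each list holds positions only, so there is no height, no value per liver and no spread between livers, and no difference between the ages or between classes of peaks could be tested over samples. The depth behind a peak is unknown. Shares are given with 95% Wilson intervals, which cover the error of counting peaks only, and peaks are not replicates. In whole liver, binding in fewer cells and weaker binding in each cell cannot be told apart. The lists hold no expression values, so the tissue label was not checked against marker genes.

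Setdb1 is a methyltransferase that adds methyl groups to lysine 9 of histone H3. It has tandem Tudor domains that bind H3 tails carrying acetylated lysine 14 (H3K14ac) together with methylated lysine 9. Kap1, encoded by Trim28, is a scaffold protein that binds Setdb1 and is brought to DNA by zinc finger proteins with a KRAB domain, many of which recognize retroelements. The complex is best known for silencing endogenous retroviruses and for keeping clusters of zinc finger genes, and some imprinted genes, in H3K9me3 chromatin.

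Width chose these peaks, so widths are given as a description. The median wide peak measured 272 bp in young liver (quartiles 234 and 339 bp) and 291 bp in old liver (quartiles 233.8 and 393 bp). Peaks of 300 bp or less made up 64.4% of the young and 54.0% of the old wide peaks, so the word domain suits few of them. Wider than 500 bp were 114 young and 40 old peaks, and wider than 1000 bp were 39 and 14. The widest young peak spanned 5972 bp and the widest old peak 2769 bp. Wide peaks made up 2.77% of young Setdb1 peaks (2.63% to 2.92%) and 1.84% of old ones (1.63% to 2.08%). The old list held 18.5% as many wide peaks as the young list, against 28.0% as many 200 bp peaks. This ratio was not the same in all width bands. It was 13.6% for peaks of 226 to 250 bp, 26.3% for 401 to 500 bp and 35.9% for those over 1000 bp. Wide peaks covered 466.5 kb in young liver, 4.64% of the length under Setdb1 peaks, and 98.99 kb in old liver, 3.56% of that length.

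**Figure D1:**
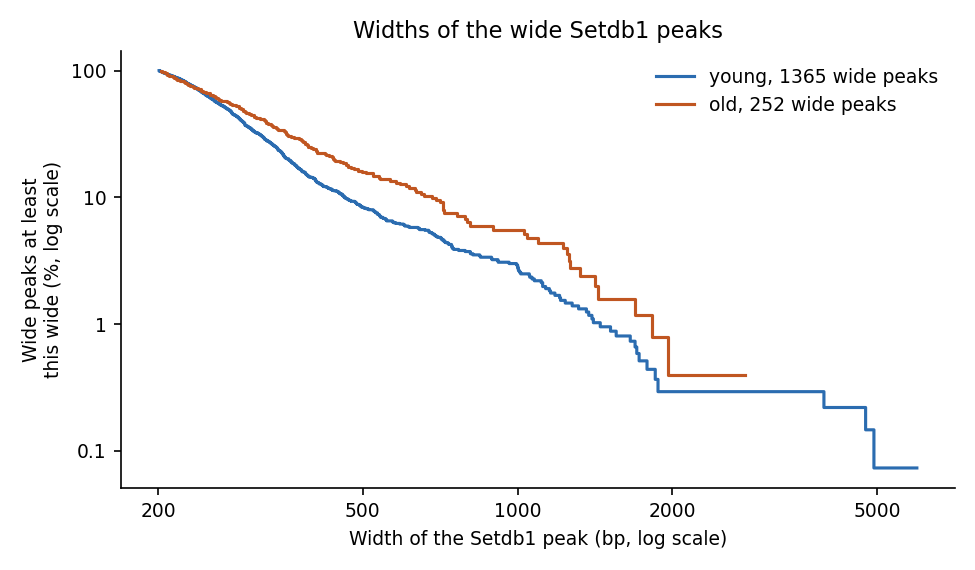
Share of the wide Setdb1 peaks of each age (vertical axis, %, log scale) that are at least as wide as the value on the horizontal axis (bp, log scale). The curve of the 252 old peaks lies above that of the 1365 young peaks at 300, 500 and 1000 bp, while 4 young peaks are wider than the widest old peak of 2769 bp.

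The central 200 bases of some of the widest peaks are shown because these regions recur in the results, and because their sequence differs in kind. All sequences are from the RefSeq copy of GRCm38, plus strand unless stated, with CpG dinucleotides in capitals here. The widest young peak (chr17:39842932-39848903) lies over an annotated rRNA sequence, CT010467.1, and the noncoding genes Gm26917, Gm42418 and AY036118, and its centre has 71% GC and 23 CpG. The second widest young peak (chr1:88236802-88241729, 4928 bp) and the widest old peak (chr1:88248734-88251502, 2769 bp) both overlap exons of Mroh2a, and the centre of the old one, shown here, has 2 CpG. The fourth widest young peak (chr1:88298005-88301944, 3940 bp) lies in an intron of Trpm8, the cold- and menthol-sensing cation channel, and its centre has 3 CpG. In both centres from chr1, no word of 32 bases occurs more than once in the genome.
chr17:39845818-39846017, rRNA region, young: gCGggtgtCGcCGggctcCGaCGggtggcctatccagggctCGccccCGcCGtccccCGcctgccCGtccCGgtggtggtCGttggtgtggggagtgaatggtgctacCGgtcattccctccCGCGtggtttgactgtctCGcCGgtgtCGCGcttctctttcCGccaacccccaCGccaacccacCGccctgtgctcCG
chr1:88250018-88250217, Mroh2a, old: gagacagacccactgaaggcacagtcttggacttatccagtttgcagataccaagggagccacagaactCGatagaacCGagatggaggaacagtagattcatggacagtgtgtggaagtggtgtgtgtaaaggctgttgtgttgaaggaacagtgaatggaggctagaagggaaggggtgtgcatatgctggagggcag
chr1:88299875-88300074, Trpm8, young: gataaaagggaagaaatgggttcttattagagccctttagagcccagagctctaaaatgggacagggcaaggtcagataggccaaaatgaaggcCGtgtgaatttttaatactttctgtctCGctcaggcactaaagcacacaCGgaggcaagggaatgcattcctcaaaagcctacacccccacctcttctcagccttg

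Wide peaks over the start site of a protein-coding gene were few, 11 of 1365 in young and 2 of 252 in old liver. No such number is given for the 200 bp peaks. The centres of a pair of these wide peaks are shown because young Kap1 and young H3K14ac peaks met both. Agrn encodes agrin, a proteoglycan that organizes the neuromuscular junction, and an annotated start site of it lies within a young peak of 1212 bp (chr4:156185638-156186849) whose centre has 67.5% GC and 16 CpG. Cacna2d1 encodes an auxiliary subunit of voltage-gated calcium channels, and its start site lies within a young peak of 404 bp (chr5:15934358-15934761) whose centre has 80% GC and 28 CpG. Capitals mark CpG.
chr4:156186144-156186343, Agrn, young: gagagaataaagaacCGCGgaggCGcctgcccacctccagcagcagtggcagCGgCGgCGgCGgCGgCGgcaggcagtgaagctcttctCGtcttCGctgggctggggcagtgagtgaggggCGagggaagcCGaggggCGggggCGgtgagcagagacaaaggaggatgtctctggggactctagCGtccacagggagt
chr5:15934460-15934659, Cacna2d1, young: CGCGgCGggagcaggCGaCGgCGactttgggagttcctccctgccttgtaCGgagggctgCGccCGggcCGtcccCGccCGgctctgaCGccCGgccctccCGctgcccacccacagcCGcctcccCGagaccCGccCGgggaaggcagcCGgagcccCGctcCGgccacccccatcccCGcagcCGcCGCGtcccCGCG

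A further set is shown because its members repeat in part with a short period, or because all 6 lists hold a peak of nearly the same width there. A peak between genes near the end of chr9 (chr9:124256286-124258137 in young liver) repeats with a period of 31 bases, 80.8% of its bases being equal to the base 31 further on. A young peak on chr4 (chr4:3082778-3084500, 1723 bp) repeats with a period of 21 bases, with 66.3% of bases equal. Capitals in these sequences mark bases equal to the base 1 period further on, which cannot be found for the last period. The peak on chr15 (chr15:75085427-75087118, 1692 bp) holds no CpG in its centre, so its sequence has no capitals.
chr9:124257112-124257311, period of 31 bases: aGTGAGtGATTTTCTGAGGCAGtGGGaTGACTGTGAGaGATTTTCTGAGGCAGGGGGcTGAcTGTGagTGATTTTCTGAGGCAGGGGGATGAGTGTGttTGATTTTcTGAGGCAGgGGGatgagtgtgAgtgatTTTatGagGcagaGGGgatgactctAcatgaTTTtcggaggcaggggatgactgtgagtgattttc
chr4:3083539-3083738, period of 21 bases: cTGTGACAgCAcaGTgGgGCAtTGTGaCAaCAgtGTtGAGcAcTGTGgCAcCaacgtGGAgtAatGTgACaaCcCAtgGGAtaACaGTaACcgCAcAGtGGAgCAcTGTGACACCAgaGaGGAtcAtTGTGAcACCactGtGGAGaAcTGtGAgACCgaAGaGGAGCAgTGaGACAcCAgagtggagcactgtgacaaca
chr15:75086173-75086372, in all 6 lists: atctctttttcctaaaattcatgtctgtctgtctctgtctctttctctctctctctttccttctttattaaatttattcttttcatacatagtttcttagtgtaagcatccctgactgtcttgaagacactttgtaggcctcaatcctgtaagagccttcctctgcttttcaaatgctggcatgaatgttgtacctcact

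Some wide peaks resemble each other. After joining the wide peaks of the 2 ages that overlap, 1569 loci remained, and 67 of them (4.27%) fell into 21 groups. Loci were linked where their central 200 bases shared at least 80% of bases along 80% or more of their length. Links were chained, so a member need not match every other member of its group. The 200 bp peaks were not grouped, so no share is given for them. The largest group has 12 loci on 7 chromosomes, of 214 to 995 bp. The next has 7 loci, of 486 to 1314 bp, on chr2 and chr9, at or near the predicted genes Gm10800, Gm10801, Gm11168, Gm10715, Gm10717, Gm10718 and Gm10719. Of the 21 groups, 13 are pairs, and the closest pair lies within E030030I06Rik on chr10 and near Gm16505 on chr13. For each of these 3 groups, 2 members on different chromosomes are shown, with capitals at the bases identical to the aligned base of the other member, gaps left out. The loci on chr13 and chr3 are 86.9% identical over 176 aligned bases, those on chr2 and chr9 93.2% over 177, and those on chr10 and chr13 96.1% over 181. The sequences from chr9:3029737-3029936 and chr13:3373214-3373413 are of the minus strand.
chr13:106184417-106184616, group of 12: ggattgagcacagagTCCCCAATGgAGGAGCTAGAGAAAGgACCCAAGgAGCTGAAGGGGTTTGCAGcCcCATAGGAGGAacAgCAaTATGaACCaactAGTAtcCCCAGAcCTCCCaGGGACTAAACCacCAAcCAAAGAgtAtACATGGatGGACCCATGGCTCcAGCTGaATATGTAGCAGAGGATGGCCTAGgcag
chr3:124243258-124243457, group of 12: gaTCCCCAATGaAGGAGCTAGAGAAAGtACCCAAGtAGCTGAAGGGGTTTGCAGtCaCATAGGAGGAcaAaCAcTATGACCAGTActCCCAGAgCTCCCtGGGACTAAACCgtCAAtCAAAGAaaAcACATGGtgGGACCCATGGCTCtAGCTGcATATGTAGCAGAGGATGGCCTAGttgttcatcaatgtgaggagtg
chr2:98666724-98666923, Gm10800, group of 7: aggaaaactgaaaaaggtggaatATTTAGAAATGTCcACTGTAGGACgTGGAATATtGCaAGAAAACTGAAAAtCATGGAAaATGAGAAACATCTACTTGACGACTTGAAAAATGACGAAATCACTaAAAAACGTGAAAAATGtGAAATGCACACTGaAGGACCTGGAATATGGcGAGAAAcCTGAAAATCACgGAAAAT
chr9:3029737-3029936, Gm10717, group of 7: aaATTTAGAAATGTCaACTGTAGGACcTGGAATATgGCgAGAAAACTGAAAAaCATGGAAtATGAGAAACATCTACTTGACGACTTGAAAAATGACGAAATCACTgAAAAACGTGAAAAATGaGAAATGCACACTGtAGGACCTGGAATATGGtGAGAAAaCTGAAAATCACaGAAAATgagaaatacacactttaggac
chr10:22142621-22142820, E030030I06Rik: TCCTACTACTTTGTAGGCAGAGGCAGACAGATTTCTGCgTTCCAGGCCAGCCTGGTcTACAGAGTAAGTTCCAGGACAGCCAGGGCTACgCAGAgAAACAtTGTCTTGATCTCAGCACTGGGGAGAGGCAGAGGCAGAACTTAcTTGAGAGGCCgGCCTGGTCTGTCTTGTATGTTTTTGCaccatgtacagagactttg
chr13:3373214-3373413, near Gm16505: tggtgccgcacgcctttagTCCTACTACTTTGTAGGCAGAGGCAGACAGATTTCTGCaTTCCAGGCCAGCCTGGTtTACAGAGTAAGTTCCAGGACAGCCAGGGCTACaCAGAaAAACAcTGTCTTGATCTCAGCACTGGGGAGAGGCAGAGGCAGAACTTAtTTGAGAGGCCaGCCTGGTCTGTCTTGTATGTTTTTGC

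The partner of Setdb1 in its complex, Kap1, was found far more often at wide than at 200 bp Setdb1 peaks in these lists. In young liver 244 wide peaks, or 17.9% (15.9% to 20%), shared at least 1 bp with a young Kap1 peak, against 1.63% of the 200 bp peaks. In old liver 81 wide peaks, or 32.1% (26.7% to 38.1%), met an old Kap1 peak, against 1.25% of the 200 bp peaks. A wide peak offers more length to be met, so the central 200 bp of every peak in both lists was also compared. By this measure 13.4% of young and 22.2% of old wide peaks met a Kap1 peak, against 1.72% and 1.34% of the 200 bp peaks. With whole peaks over 1 Mb from an assembly gap the shares were 10.3% and 23.5%, against 1.34% and 0.924%.

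The acetyl mark also lay more often at wide peaks. A young H3K14ac peak met 145 young wide peaks, or 10.6% (9.10% to 12.4%), against 0.712% of the 200 bp peaks. An old H3K14ac peak met 58 old wide peaks, or 23.0% (18.2% to 28.6%), against 0.745%. Over 1 Mb from an assembly gap these shares were 5.58% in young and 16.2% in old liver, against 0.641% and 0.627%. With central 200 bp the shares of all wide peaks were 7.40% in young and 17.5% in old liver, against 0.470% and 0.588%. Without the peaks that all 5 other lists share the old share by 1 bp was 13.0%. That filter takes out only peaks that have an H3K14ac peak, so it could only lower the share. Peaks of both Kap1 and H3K14ac lay at 102 young wide peaks (7.47%) and at 45 old ones (17.9%), against 0.102% and 0.0447% of the 200 bp peaks. Neither was found at 1078 young (79.0%) and 158 old (62.7%) wide peaks, so most wide Setdb1 peaks had no partner of either kind in the lists of their age.

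**Figure D2:**
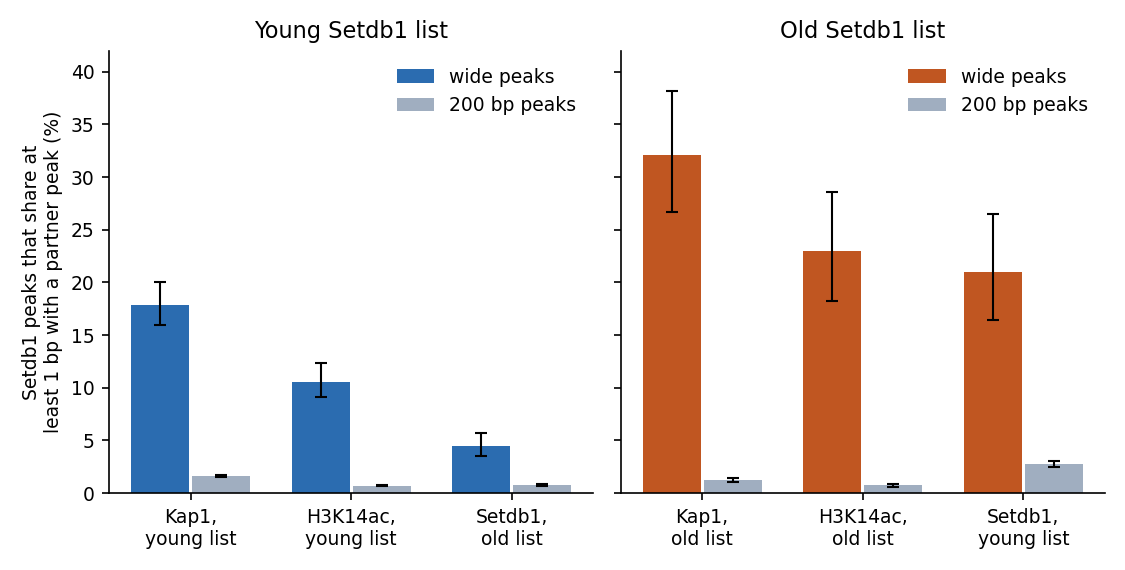
Share of Setdb1 peaks (vertical axis, %) that share at least 1 bp with a Kap1 or H3K14ac peak of the same age or with a Setdb1 peak of the other age, in the young (left) and old (right) Setdb1 list, with 95% Wilson intervals as bars. In all 6 comparisons the coloured bar of the wide peaks stands above the grey bar of the 200 bp peaks and the intervals do not overlap.

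These shares differed by width within the wide peaks. Just outside the limit, at 200 bp, 1.63% of young peaks met a Kap1 peak, and just inside it, at 201 to 225 bp, 9.43% did (6.36% to 13.8%). The share was 16.1% at 301 to 400 bp, 65.3% at 501 to 1000 bp and 87.2% above 1000 bp. In old liver it was 10.6% at 201 to 225 bp, 30.9% at 301 to 400 bp, 53.8% at 501 to 1000 bp and 100% of the 14 peaks above 1000 bp (78.5% to 100%). For H3K14ac the young shares were 4.92% at 201 to 225 bp, 46.7% at 501 to 1000 bp and 76.9% above 1000 bp, and the old shares 2.13%, 46.2% and 78.6%. The intervals of the 2 ages overlap in the bands over 500 bp for both partners. Below that the intervals of the ages do not overlap for Kap1 at 251 to 300 bp (28.3% in old against 11.1% in young liver) and for H3K14ac at 226 to 250 bp (16.7% against 4.53%) and 301 to 400 bp (23.6% against 6.16%), and they overlap in the other bands. At 201 to 225 bp the interval of the old H3K14ac share, 0.377% to 11.1%, includes the 0.745% of the 200 bp peaks. Closeness to assembly gaps differed by width as well, but did not rise in every band. Within 1 Mb of a gap lay 19.3% of the young peaks of 201 to 225 bp and 19.5% of those of 301 to 400 bp. The share was 72.0% at 501 to 1000 bp and 59.0% above 1000 bp. In old liver these shares were 23.4%, 58.2%, 69.2% and 64.3%. The part of gaps in the partner shares was not tested.

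**Figure D3:**
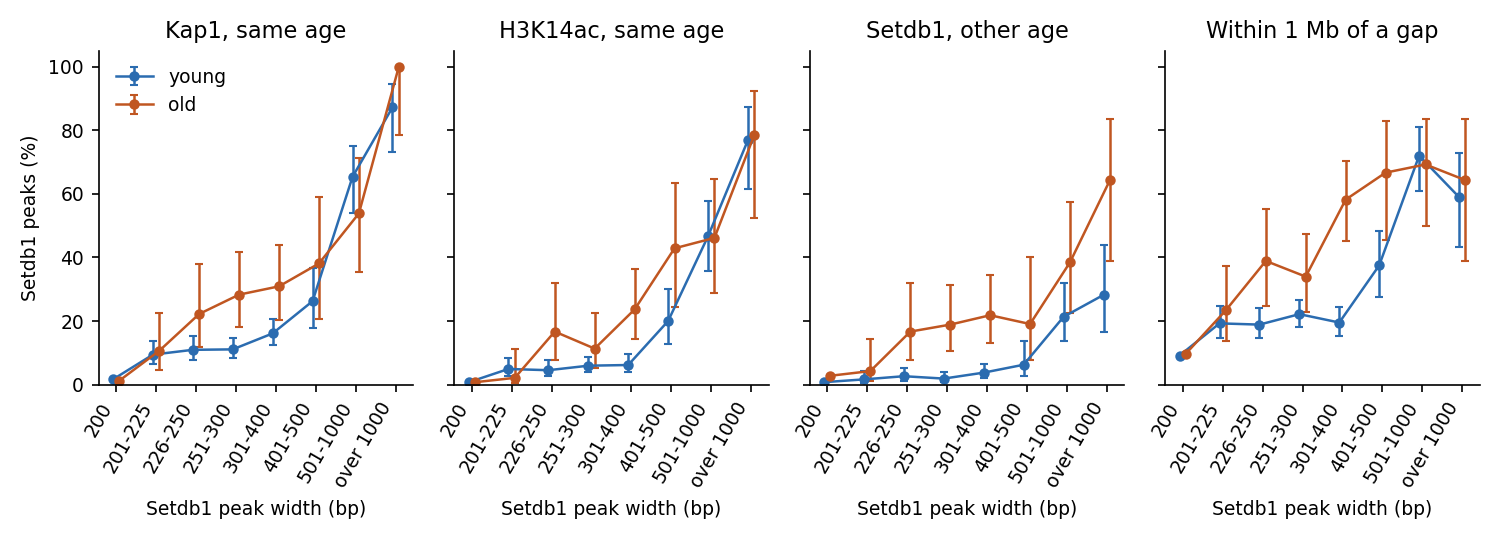
Share of Setdb1 peaks (vertical axis, %) in 8 classes of width (horizontal axis, bp) that meet a Kap1 peak, an H3K14ac peak or a Setdb1 peak of the other age, or that lie within 1 Mb of an assembly gap, with 95% Wilson intervals. For Kap1 the young share goes from 1.63% at 200 bp to 87.2% above 1000 bp and the old share from 1.25% to 100%.

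Most Kap1 partners were wider than the usual Kap1 peak, and most H3K14ac partners were not wider than the usual H3K14ac peak. Kap1 peaks are most often 150 bp wide, and 11.5% of all young Kap1 peaks exceed that, but of the young wide Setdb1 peaks with a Kap1 partner 70.5% had a partner over 150 bp. In old liver 87.7% did, against 14.3% of all old Kap1 peaks. H3K14ac peaks are most often 500 bp wide, and 2.44% of all young and 2.14% of all old ones exceed that. At wide Setdb1 peaks with an H3K14ac partner 29% of young and 27.6% of old partners exceeded it. A wider partner is also met more easily. Where both peaks exceeded the common width of their list, the Kap1 peak was a median 1.132 times as wide as the Setdb1 peak in young liver (172 peaks) and 1.10 times in old liver (71 peaks). It covered a median of 96.8% and 99.0% of the Setdb1 peak. Across these regions the 2 widths had a Spearman's rho of 0.67 in young and 0.73 in old liver, given as a description because the lists share mice of 1 strain, genome and peak caller.

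Wide Setdb1 peaks recurred at the other age more often than 200 bp peaks did. An old Setdb1 peak met 61 young wide peaks, or 4.47% (3.50% to 5.70%), against 0.766% of the young 200 bp peaks. A young Setdb1 peak met 53 old wide peaks, or 21.0% (16.5% to 26.5%), against 2.79% of the old 200 bp peaks. The old list is the smaller, so the share of old peaks that recur is the larger. With central 200 bp these were 3.22% and 15.9% of the wide peaks, against 0.766% and 2.76%. At 201 to 225 bp the shares were 1.64% in young (0.639% to 4.14%) and 4.26% in old liver (1.18% to 14.3%), and the intervals overlap those of the 200 bp peaks. Over 1 Mb from an assembly gap 2.84% of young wide peaks recurred, against 0.738% of the 200 bp peaks there. Without the peaks that all 5 other lists share, 2.32% of young and 10.8% of old wide peaks recurred. The 5 lists include Setdb1 of the other age, so this filter takes out only peaks that recur and could only lower the share.

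At 48 pairs a peak was wide at both ages, and these took up 48 of the young and 47 of the old wide peaks. In 17 pairs both edges lay within 50 bp of each other. The young peak was the wider in 30 pairs and the old peak in 14, and 4 had equal widths. The median width of the young peaks was 529 bp and that of the old peaks 397.5 bp, and the old peak was a median 0.955 times as wide as the young one. Wide young peaks without an old peak had a median width of 270 bp. Kap1 peaks of both ages met the young Setdb1 peak in 35 pairs, and Kap1 and H3K14ac peaks of both ages in 29. Partner widths of pairs are given over the young interval, and the old Setdb1 peak of a pair may meet other peaks. The remaining old wide peaks with a young partner, 6 of them, met only a 200 bp young peak, and 13 young wide peaks met only a 200 bp old peak.

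**Figure D4:**
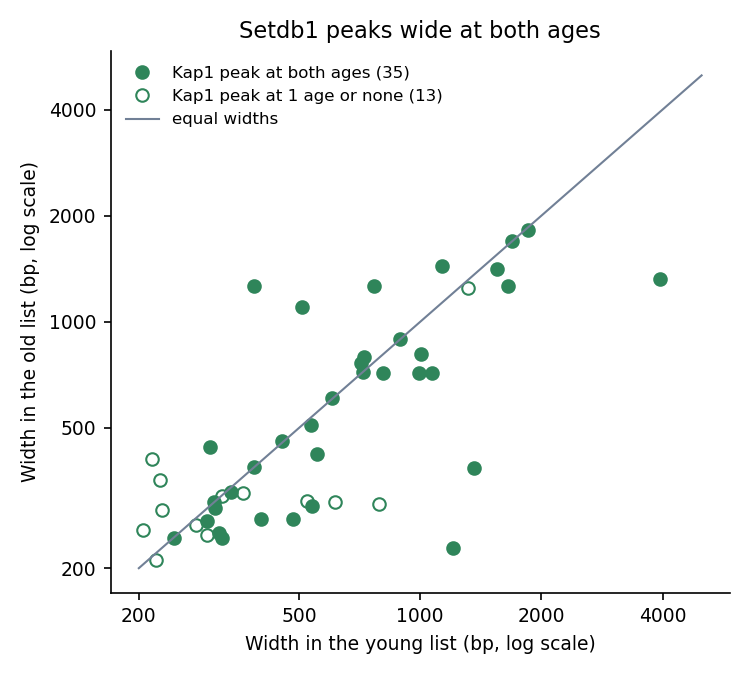
Width in the old list (vertical axis, bp, log scale) against width in the young list (horizontal axis, bp, log scale) for the 48 pairs of Setdb1 peaks that are wide at both ages, with filled points where Kap1 peaks of both ages meet the young Setdb1 peak. The young peak is the wider in 30 pairs, the points below the line of equal widths, and the point farthest to the right is the Trpm8 peak of 3940 and 1325 bp.

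Of the 10 pairs with the widest young peaks, Trpm8 differed most in bp. Its Setdb1 peak spanned 3940 bp in young and only 1325 bp in old liver, the Kap1 peak there 4508 and 3857 bp and the H3K14ac peak 1308 and 2401 bp. The tandem repeat on chr9 measured 1852 and 1826 bp for Setdb1, 1845 and 1837 bp for Kap1 and 1898 and 1845 bp for H3K14ac. The region on chr15 measured 1692 and 1691 bp for Setdb1, 1692 and 1690 bp for Kap1 and 1674 and 1669 bp for H3K14ac. At these last 2 regions the 6 lists thus differ by at most 72 bp and 23 bp. On chr13 (chr13:12926697-12928352), between genes, Setdb1 measured 1656 and 1266 bp and Kap1 3959 and 1586 bp. At Gm10800 on chr2 (chr2:98666167-98667480) Setdb1 measured 1314 and 1249 bp, and Kap1 had a peak of 1312 bp in old liver and none in young. Within the gene Tmem267, which encodes a transmembrane protein, the young Setdb1 peak spanned 1207 bp and the old one 228 bp, and Kap1 peaks 778 and 1243 bp. Near the start of chr16 (chr16:3270927-3272060) the old Setdb1 peak was the wider, with 1435 bp against 1134 bp, while the young Kap1 peak spanned 8295 bp and the old one 3077 bp.

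Farther down the same order, other regions had widths that differed little between the Setdb1 lists, by at most 14 bp in the 3 examples that follow, which were chosen after their values were seen. In Aida, which encodes an axin-interacting protein (chr1:183299060-183299662), an intronic peak measured 603 and 607 bp for Setdb1, 607 and 610 bp for Kap1 and 602 and 605 bp for H3K14ac. In an intron of Camk1d, a calcium/calmodulin-dependent kinase gene, Setdb1 measured 244 bp at both ages and Kap1 252 and 249 bp, whereas each H3K14ac list held a peak of its usual 500 bp. In Fbxw4, an F-box protein gene, Setdb1 measured 310 and 296 bp and Kap1 303 and 304 bp. All 5 other lists had a peak at 30 young wide peaks (2.20%, 1.54% to 3.12%) and at 29 old ones (11.5%, 8.13% to 16.0%), against 1 of the young and 2 of the old 200 bp peaks. At the other end, 1015 young (74.4%) and 116 old (46.0%) wide peaks met no peak of any other list, against 96.0% and 92.7% of the 200 bp peaks. The young wide peaks found in no other list had a median width of 261 bp and those in all others 657.5 bp.

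Most young wide peaks lacked a Setdb1 peak in the old list, and Kap1 or H3K14ac peaks of old liver lay at some of them. Of the 1304 such peaks 148 (11.3%, 9.74% to 13.2%) met an old Kap1 peak, 97 (7.44%) an old H3K14ac peak and 186 (14.3%) either of them, against 1.31% for either at the 200 bp peaks. Among the 87 of them over 500 bp 54 (62.1%, 51.6% to 71.6%) met either. Of the 199 old wide peaks without a young Setdb1 peak 69 (34.7%) met a young Kap1 or H3K14ac peak, against 3.11% of the 200 bp peaks. Of the 10 widest young peaks, 5 were of this kind with an old Kap1 peak. They lie at the rRNA region of chr17, Mroh2a, Gm49692, Ccdc7a and Trpm8 (the peak of 1705 bp), with old Kap1 peaks of 5971, 5056, 4772, 1760 and 1721 bp.

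Wide peaks with Kap1 and H3K14ac peaks of their own age, and no peak of any of the 3 lists of the other age, numbered 7 in young and 1 in old liver. Among the wide peaks without a Setdb1 peak at the other age these were 0.537% in young (0.260% to 1.10%) and 0.503% in old liver (0.0888% to 2.79%), against 0.0610% and 0.0153% of such 200 bp peaks. Wide peaks have both partners more often to begin with. Of those with Kap1 and H3K14ac at their own age, 7 of 65 young wide peaks and 29 of 45 young 200 bp peaks had neither at the other age, and in old liver 1 of 14 and 2 of 3. They were picked out after the values were seen. The widest was Mup6 (chr4:60004611-60006395), a member of the family of major urinary proteins, lipocalins that the liver secretes and that carry pheromones. There young liver had peaks of 1785 bp for Setdb1, 4527 bp for Kap1 and 738 bp for H3K14ac, overlapping an exon, and old liver had none. The next was the Agrn region shown above, with young peaks of 1212 bp for Setdb1, 1694 bp for Kap1 and 500 bp for H3K14ac and no old peak. The others measured 207 to 600 bp, among them a peak of 315 bp in Vstm2a. The old region (chr1:195207979-195209019) lies between genes, with peaks of 1041 bp for Setdb1, 411 bp for Kap1 and 500 bp for H3K14ac. A list holds only what passed the threshold of the authors, so a region without a peak may still have signal below it.

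**Figure D5:**
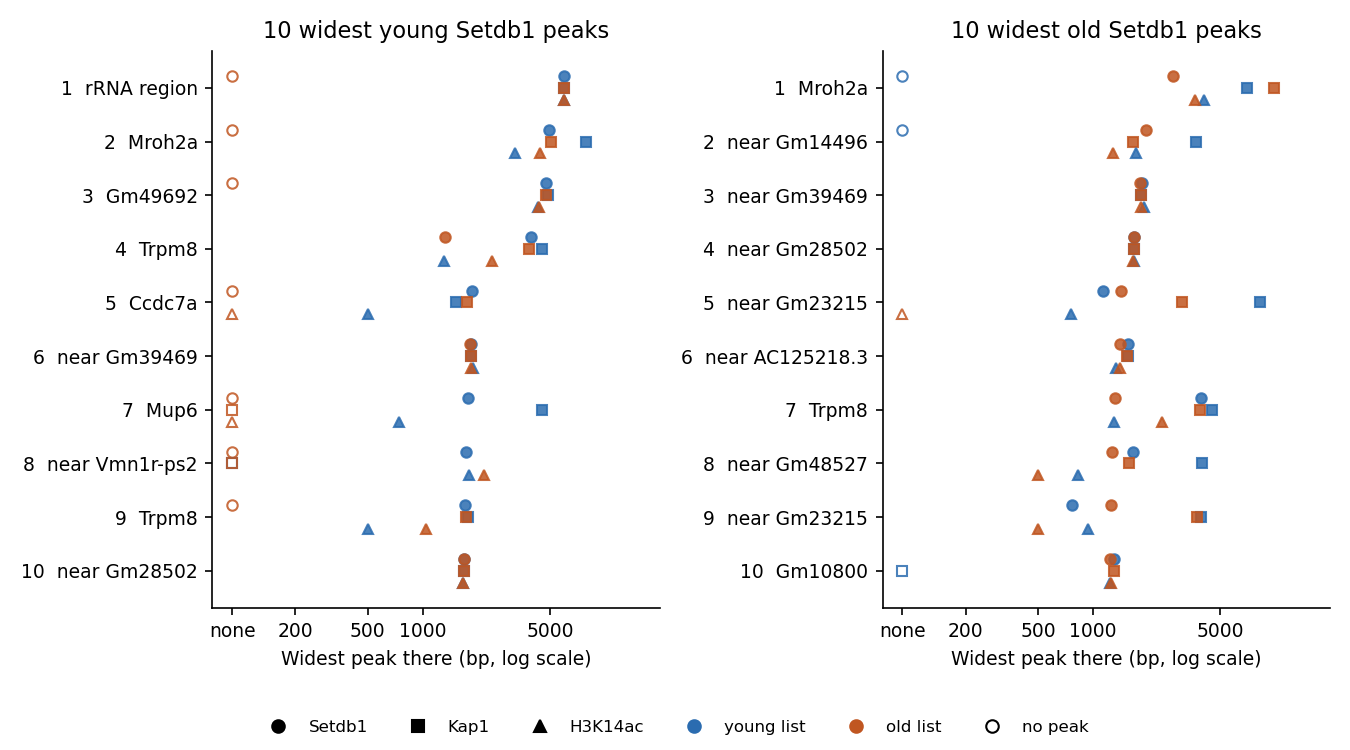
Width of the widest Setdb1, Kap1 and H3K14ac peak (horizontal axis, bp, log scale) at the 10 widest young (left) and old (right) Setdb1 peaks, labelled by the gene they overlap or the nearest start site, blue for young and orange for old lists, with open symbols at the left for lists that have no peak there. Setdb1 of old liver is absent at 7 of the 10 widest young regions, while Kap1 of old liver is absent at 2 of them, Mup6 and the one near Vmn1r-ps2.

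Some wide peaks lay in runs. When wide peaks of either age less than 50 kb apart were linked, 1117 of the 1617 stayed single, and 26 runs held 5 or more, 180 wide peaks (11.1%) in all. They span 2.09 Mb and hold 9.16% of young and 21.8% of old wide peaks, but 0.0877% and 0.134% of the 200 bp peaks. The link used the wide peaks, so their excess is a description. Peaks of both ages were linked together, and a young and an old peak that overlap were each counted. The shares of the ages in these runs therefore cannot be compared.

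These runs were chosen after the values were seen. The run with the widest peaks spans 65.1 kb of chr1 (chr1:88236802-88301944) over Mroh2a, Trpm8 and Hjurp, the last of which encodes the chaperone of the centromeric histone CENP-A. It holds 3 young and 2 old wide peaks, of 1325 to 4928 bp, and all 5 met Kap1 and H3K14ac peaks of their age. Kap1 peaks cover 52.2 kb of this run in young and 49.5 kb in old liver, with a widest peak of 17736 and 15610 bp, and H3K14ac peaks cover 53.1 and 54.0 kb. Setdb1 covers 10.6 kb in young and 4.09 kb in old liver. The nearest assembly gap is 2789698 bp away.

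The run with the most members spans 231.3 kb at the end of chr19, from a peak that overlaps both Grk5 and Zfp950 past Csf2ra. Grk5 encodes a kinase of G protein-coupled receptors, Zfp950 a zinc finger protein and Csf2ra a subunit of the receptor for the cytokine GM-CSF. It holds 18 young and 5 old wide peaks, of which 12 and 3 met Kap1 and 4 and 1 met H3K14ac, beside 3 young 200 bp peaks. Further along Grk5, 4 more young wide peaks of 305, 719, 1159 and 745 bp precede the run, and no old Setdb1 peak met them. The next run, 41.1 kb on chr16 without protein-coding genes, holds 7 young and 5 old wide peaks, and all 12 met a Kap1 peak of their age. The third, 32.7 kb on chr4 that includes the peak with a period of 21 bases shown above, holds 8 young and 2 old wide peaks, of which 5 young and no old peak met Kap1 and 7 young and 1 old met H3K14ac. It starts 1756 bp from an assembly gap.

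Another run, 39.7 kb on chr3, covers Chia1, which encodes acidic chitinase, and Chil3, a chitinase-like protein made by macrophages. It holds 6 young and 2 old wide peaks of 227 to 580 bp, of which 5 and 2 met Kap1. It lies 7206363 bp from the nearest gap. Near Ccne1, the gene of cyclin E1, 4 young and 4 old wide peaks of 223 to 424 bp lie within 127.7 kb of chr7, and none of the 8 met a Kap1 or H3K14ac peak of its age, although the run holds 60 young and 25 old Kap1 peaks. On chr4 around Phf24 and Dnajb5, 5 young wide peaks of 281 to 1277 bp and 2 old ones lie within 94.3 kb, of which 4 young met Kap1 and none met H3K14ac.

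Protein-coding genes with 3 or more wide peaks of an age numbered 8 in young and 0 in old liver. The young list held 1365 wide peaks and the old list 252, and no such number is given for 200 bp peaks. An age difference can therefore not be read from these counts. The 8 genes differ in kind. The predicted gene Gm14412 on chr2 had peaks of 1404, 751 and 456 bp in its introns, all 3 of which met Kap1 and H3K14ac peaks at both ages, the Kap1 peaks being 2545 and 3512 bp in young and 1185 to 1709 bp in old liver. No old Setdb1 peak lay on them. Agrn had 504, 1212 and 514 bp, and no old peak of any factor met them. Bicd1, which encodes an adaptor of the dynein motor, had 590, 377 and 216 bp, the widest over its start site. Ccdc7b had 449, 661 and 963 bp. The long genes Csmd1 and Epha6, which encode a membrane protein with complement-like domains and an ephrin receptor, had 3 each, of 239 to 392 bp. These lie beside 50 and 19 young 200 bp peaks, and none of them met a peak of any other list. Snhg14, the noncoding host of small nucleolar RNAs in the imprinted Snrpn region, had 280, 450 and 471 bp.

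Gene families were counted by symbol, so a member with a predicted (Gm) name was left out of its family. Zinc finger genes (Zfp, Zkscan, Zscan, Zik and Zim) held 11 young (0.806%, 0.451% to 1.44%) and 5 old (1.98%, 0.850% to 4.56%) wide peaks. The shares of the 200 bp peaks were 0.534% and 0.499%, and the young intervals overlap. The wide peaks lie in Zfp141, Zfp597, Zfp600, Zfp804b, Zfp950, Zfp980, Zfp981, Zfp984 and Zfp985. In Zfp981 a young peak of 1119 bp met a young Kap1 peak of 12724 bp and an old one of 8144 bp. A further region of Zfp981 had a young Setdb1 peak of 995 bp and an old one of 717 bp, with Kap1 peaks of 3967 and 4022 bp. In Zfp985 a young peak of 917 bp met a young Kap1 peak of 1525 bp. In Zfp141 a peak of 502 bp met no peak of any other list. Olfactory receptor genes held 10 young (0.733%) and 2 old (0.794%) wide peaks, against 0.411% and 0.693%, and vomeronasal receptor genes 10 (0.733%) and 2 (0.794%), against 0.380% and 0.380%. For both of these families the intervals overlap those of the 200 bp peaks at both ages. Cytochrome P450 genes held 4 young wide peaks (0.293%, 0.114% to 0.751%; Cyp2j13, Cyp2a21-ps, Cyp2c55 and Cyp2b23, 222 to 346 bp), against 0.134% of the 200 bp peaks, and the intervals overlap. Mup genes held 1 young wide peak and no 200 bp peak, and Ugt, Serpina and histone genes held 0 wide peaks, against 3, 1 and 3 of the young 200 bp peaks. No wide peak lay in Setdb1, Trim28, Hdac3, Onecut1, Apob or Apoc1. Of the young 200 bp peaks 1 each lay in Setdb1, Onecut1 and Apob and 0 in the other genes, and of the old ones 0 in all. With so few peaks of either class there, the lack of wide peaks is not a result about these genes.

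Within 1 kb of a start site lay 87 young wide peaks, or 6.37% (5.20% to 7.80%), against 4.32% of the young 200 bp peaks, and 18 old ones, or 7.14% (4.57% to 11.0%), against 4.33%. For this measure the intervals of wide and 200 bp peaks overlap in old liver and do not overlap in young liver. Over coding start sites the largest after Agrn and Gm10800 were Defb13, a beta-defensin gene, with 1003 bp, and Bicd1 with 590 bp in young liver. In old liver they were Gm10800 with 1249 bp and Zfp984 with 228 bp. Introns held 31.5% of young (29.1% to 34.0%) and 27.0% of old (21.9% to 32.8%) wide peaks, against 39.2% and 36.6% of the 200 bp peaks. Between genes lay 56.6% and 60.3%, against 51.9% and 54.1%, and the old intervals overlap.

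Wide peaks were concentrated near gaps of the assembly, runs of 1000 or more unknown bases that stand at centromeres, chromosome ends and unfinished clusters. Within 1 Mb of a gap lay 25.1% of young wide peaks (22.9% to 27.5%), against 9.14% of the 200 bp peaks, and 46.0% of old ones (40.0% to 52.2%), against 9.76%. Within 100 kb lay 5.93% of young and 13.1% of old wide peaks, against 0.925% and 1.08%. The partners were also compared away from gaps. Over 1 Mb from a gap a Kap1 peak of the same age met 10.3% of young (8.56% to 12.3%) and 23.5% of old (17.2% to 31.3%) wide peaks, against 1.34% and 0.924% of the 200 bp peaks there. H3K14ac met 5.58% and 16.2%, against 0.641% and 0.627%. Within 1 Mb of a gap Kap1 met 40.5% and 42.2% of the wide peaks, and 4.52% and 4.27% of the 200 bp peaks.

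Sequence found more than once was commoner under wide peaks, above all in old liver. Peaks in whose centre over 50% of words of 32 bases occur more than once in the genome made up 4.40% of young wide peaks (3.43% to 5.62%), against 2.57% of the 200 bp peaks, and 11.9% of old ones (8.47% to 16.5%), against 2.74%. Only reads that align at a single place were kept by the authors, which limits what can be seen in such sequence. With words of 24 bases the shares were 10.9% in young and 23% in old liver, against 7.21% and 7.66%, and with a limit of 90% of words 0.220% and 0.794%, against 0.0230% and 0.0372%. The median of the soft-masked share of the central 200 bp was 15.5% for young and 24.2% for old wide peaks, against 13.5% and 14% for the 200 bp peaks. Its mean was 27.3% and 34.4%, against 25.2% and 25.9% for the 200 bp peaks, and 33.5% of the known bases of chr1 to chr19 are masked. Median GC content was 44.5% in young and 45.5% in old liver for wide peaks, against 44.0% and 44.5% for 200 bp peaks. Peaks with at least 70% of central bases equal to the base 1 period on, for the best period, numbered 14 in young (1.03%) and 5 in old liver (1.98%), against 0.175% and 0.104% of the 200 bp peaks. The letters ATCAAT, the core of the site of the liver factor Onecut1, which stand on either strand, occur in the centre of 8.35% of young and 7.14% of old wide peaks, against 9.47% and 9.23% of the 200 bp peaks, and the intervals overlap at both ages.

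By chromosome, wide peaks per Mb were highest on chr19 in young liver, with 0.895, and lowest on chr11, with 0.180. Chr11 had 22 wide among its young peaks (1.24%, 0.822% to 1.87%) and 1 in old liver (0.224%, 0.0396% to 1.26%). Chr4 had the highest young share, 3.82% (3.18% to 4.57%), and chr7 the highest old share, 2.89% (1.96% to 4.23%). Single Mb bins ranged up to 22 young wide peaks, at the end of chr19, and 834 bins held at least 1.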

How the data were processed

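The series measured Setdb1, Kap1 and H3K14ac by ChIP-Seq in snap-frozen liver of young and old C57BL/6 mice. Per the labels and the methods of the study, the authors aligned reads with BWA to mm10, kept reads that align once, combined the reads of livers of like age, and made peak lists at a false discovery rate of 5%. Each deposited list gives peaks by position alone, with no other value, so no count, height or depth was available and the precision rests on the number of peaks alone. The authors' lists were read as deposited and starts are given 1-based. The 4 samples of sequential ChIP were not analysed here.

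Wide Setdb1 peaks were compared with 200 bp Setdb1 peaks of the same age by the share that meets at least 1 bp of another peak, with 95% Wilson intervals. Overlap counts were checked against bedtools 2.31.1. Genes are from GENCODE vM21 (basic set), sequence and soft-masking from RefSeq GRCm38. Words of 32 bases were counted over the genome, and central 200 bases were compared with blastn 2.17.0. The scripts used Python 3.11.15, numpy 2.4.6, pandas 2.3.3 and scipy 1.17.1, and the word counts were tested on simulated data. With 1 pooled list per factor and age no test was run. The widest peaks of each age, those met by all other lists, those in the named gene families and genes with 3 or more were named. The wide peaks and all lists were chosen with earlier results of these data known. Some results are not reported here.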

Additional observations from a re-analysis of the deposited data

How the results depend on the processing

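No paired analysis was possible because each list pools the livers of an age, so no replicate could be left out and no value has a spread between livers. Of 90 values under other settings 43 stayed close to the value reported (within its 95% interval for a share or median, within 1.5 times for a count of peaks) and 47 did not; the cause of these differences was not tested. The settings on gaps, on peaks shared by all lists and on leaving out repeated sequence were chosen after seeing the data. Counting X and Y, joining peaks within 1000 bp, reading the sequence of whole peaks, measuring from midpoints and leaving out repeated sequence moved no value beyond these limits.

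With limits of 250, 300, 500 and 1000 bp the young list held 856, 486, 114 and 39 peaks, and the old list, with limits of 300, 500 and 1000 bp, 116, 40 and 14. Requiring 50% of the peak to be covered gave 12.1% for Kap1, 9.01% for H3K14ac and 3.22% for old Setdb1 in young liver, and 25% for Kap1 in old liver. Allowing a distance of 500 bp gave 24.5% for Kap1 and 13.5% for H3K14ac in young and 42.5% and 29% in old liver. Central 200 bp gave 13.4%, 7.40% and 3.22% for Kap1, H3K14ac and the other age in young and 22.2%, 17.5% and 15.9% in old liver. Peaks over 500 bp gave 72.8%, 57.0% and 23.7% in young and 70%, 57.5% and 47.5% in old liver, with 10.5% and 12.5% near start sites, 25.5% masked and 10.5% repeated in young liver. A start site distance of 5 kb gave 20.5% and 29.8%. Words of 24 bases gave 10.9% and 23.0% repeated sequence, and a limit of 90% gave 0.220% and 0.794%. Over 1 Mb from a gap the shares were 10.3%, 5.58% and 2.84% in young and 23.5% and 16.2% in old liver. Without the peaks that all 5 other lists share, they were 8.61% for H3K14ac and 2.32% for old Setdb1 in young liver, and 23.3%, 13.0% and 10.8% in old liver. That filter takes out only peaks that have each of these partners, so it could only lower the shares.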
